A study of Drosophila melanogaster with 8 samples.

Results

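The heads of fruit flies (Drosophila melanogaster) that carried the hairpin transgene row_RNAi2 were compared with the heads of driver-only control flies. The comparison used 6 of the 8 libraries, 3 of each group, chosen by their genotype labels, and it covered every gene with at least 10 counts in at least 3 of the 6, which 9129 of 13781 gene symbols had. Control flies were Actin-gal4/+ and row_RNAi2 flies were Actin-gal4/+; UAS-rowRNAi2/+. A second line, Actin-gal4/+; UAS-rowRNAi1/+ (row_RNAi1, 2 libraries), is used only to show where row_RNAi2 differs from it. Both groups therefore carried a single copy of the Actin-gal4 driver, in which the Actin promoter makes the yeast activator Gal4 in most tissues, so the hairpin was not restricted to a cell type of the head. The control genotype names no UAS insertion, and effects of the transgene insertion, of its genetic background and of the loss of row cannot be told apart. Flies lived at 25 °C with 12 h of light and 12 h of dark, had 3 days of recovery after CO2 anaesthesia and were collected with dry ice. Total RNA of the heads was extracted with TRI Reagent and sequenced by RNAtag-Seq, which barcodes RNA samples so that they can be pooled, here as a library of transcript ends. The sources used here give neither sex, age nor the number of heads per library, nor whether the libraries of a group were separate collections, so the p-values measure the spread between these libraries, which may be technical.

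ROW (relative of woc) is a zinc-finger protein of chromatin that forms a complex with the heterochromatin protein 1 family member HP1c and with WOC at active promoters. The series asks how ROW works with BEAF-32, an architectural factor that binds at domain boundaries and near the promoters of housekeeping genes. A fly head holds the brain and eyes together with antennae, muscle, cuticle and a sheet of fat body, the insect counterpart of liver and adipose tissue, which makes most of the secreted immune peptides and storage proteins named here. In whole heads, fewer cells of a type and less RNA per cell cannot be told apart.

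The 6 libraries held 6230666 to 11212213 counts. Levels are in CPM, which scales the counts of each library to the same total, and log2 CPM correlated across genes at 0.986 to 0.987 among the controls and at 0.986 to 0.991 among the row_RNAi2 libraries, against 0.968 to 0.976 between the groups. The first principal component took 55.0% of the variance and separated the groups, and the next, with 14.2%, set row_RNAi2 replicate 1 apart from the other libraries. Of 14 head marker genes 14 passed the count filter, as did 9129 of all 13781 symbols. The summed CPM of these markers, here per total counts, was 11241 to 13635 over the 6 libraries. Of these markers 10 did not pass the test, 3 fell (lush, takeout and Rh5) and 1 rose (Obp99a). The marker lush passed the count filter only through the controls.

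The transcript of row itself was lower in row_RNAi2. It stood at 14.6, 15.1 and 12.3 CPM in controls against 8.21, 6.13 and 8.49 CPM in row_RNAi2. All 3 row_RNAi2 libraries lay below all 3 controls, and the means were 14 ± 1.53 CPM (SD, n = 3) and 7.61 ± 1.29 CPM (SD, n = 3). This is 54.4% of the control mean, or a log2 fold change of -0.89 with a standard error (SE) of 0.16 (Benjamini-Hochberg adjusted p = 0.00107 in the edgeR quasi-likelihood test). An exact two-sided permutation test gave p = 0.1, the smallest that 3 against 3 libraries allow. In row_RNAi1, which shares the controls, the log2 fold change was -1.44, and row_RNAi2 minus row_RNAi1 came to 0.54 (SE 0.20), which was not called (Benjamini-Hochberg adjusted p = 0.0986, edgeR quasi-likelihood). Whether reads from the hairpin RNA were counted as row was not tested.

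Across the genome, 475 genes were higher and 434 lower in row_RNAi2 heads. A gene is called where the edgeR quasi-likelihood test gives a Benjamini-Hochberg adjusted p below 0.05, adjusted over the 9129 tested genes, and 9.96% of them were called (5.20% higher and 4.75% lower). A signed value given after a gene's name or its CPM is its log2 fold change, row_RNAi2 over control. The median size among called genes was 0.57 on the log2 scale, 118 rose and 106 fell by more than 1, and 41 rose and 32 fell by more than 2. Over all tested genes the median log2 fold change was -0.001. The 3 libraries of each group did not overlap for 24.7% of tested genes (12.7% higher in row_RNAi2, 12.0% lower), among them 471 of the genes that rose and 427 of those that fell. More of the abundant genes were called, from 4.72% of genes at 2 to 10 CPM to 24.9% of those over 200 CPM, and the plot of fold change against level shows how the spread of uncalled genes narrows with level. Summed over called genes, the rises came to 60678 CPM and the falls to -25816 CPM. Symbols with the same or nearly the same counts, such as Adh and Adhr, each enter these sums, so their reads are counted more than 1 time.

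**Figure D1:**
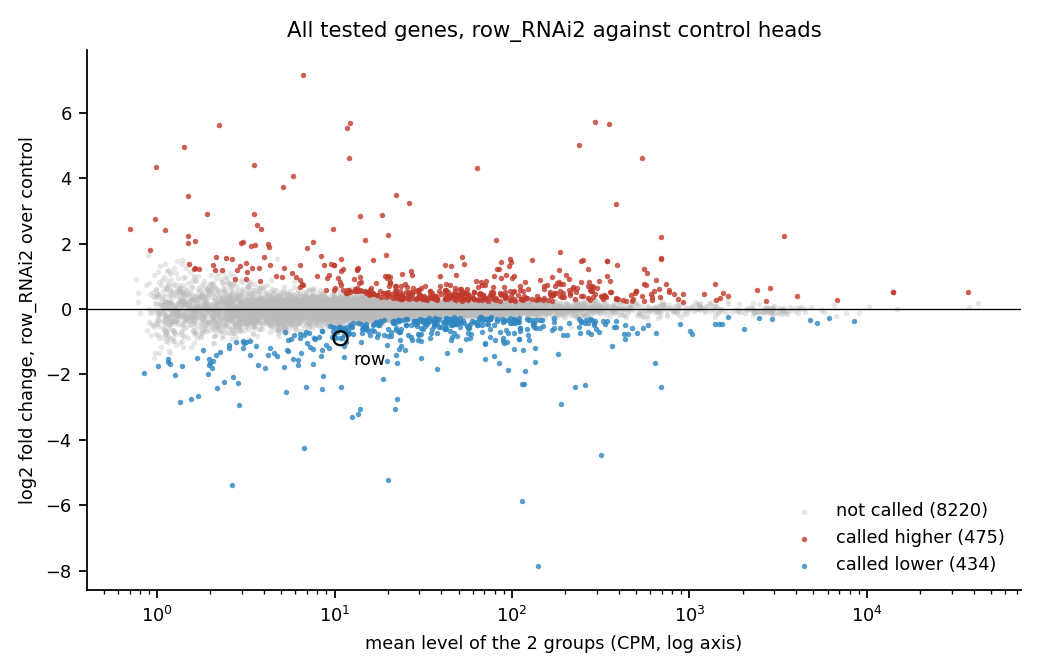
Log2 fold change of row_RNAi2 over control (vertical axis) against the mean level of the 2 groups in CPM (horizontal log axis) for each of the 9129 tested genes. Red points are the 475 genes called higher, blue points the 434 called lower, grey points the 8220 not called, and the open circle is row at -0.89.

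The largest rise was that of CG13704. CG13704 (hoka), which encodes a membrane protein of the smooth septate junctions of the fly gut and Malpighian tubules, had 2 counts over the 3 control libraries and 364 over the 3 row_RNAi2 libraries. Its level was 0.134, 0.105 and 0 CPM in controls and 13.7, 15.8 and 10.2 CPM in row_RNAi2, a ratio of 170 with a 95% counting interval of 46.6 to 1405. CG13704 passed the count filter only through the row_RNAi2 libraries, so the direction of its change was set by the filter. In row_RNAi1 it stood at 0.242 and 0.173 CPM, where it was not called (log2 fold change 1.32). The other 11 of the 12 largest rises were called higher in row_RNAi1 too, which shares the controls. The neighbouring CG13707 rose as well, with 7.89, 7.26 and 6.70 CPM in controls against 10.9, 15.7 and 14.5 CPM in row_RNAi2. This neighbour was chosen after its values were seen. The acyl-CoA synthetase gene CG4500 (hll) rose from 2.14, 3.58 and 4.77 CPM to 50.8, 42.2 and 29.9 CPM (log2 fold change 3.50, SE 0.22, edgeR quasi-likelihood Benjamini-Hochberg adjusted p = 4.77e-09). The cuticle protein gene Cpr64Ac went from 1.2, 0.421 and 0.568 CPM to 9.05, 9.66 and 9.86 CPM, a log2 fold change of 3.74. Cpr64Ac also passed the count filter only through the row_RNAi2 libraries, which set its direction. All 3 row_RNAi2 libraries lay above all 3 controls for each of these genes, as the plot of levels per library shows.

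For 9 others of the 12 largest rises, control replicate 2 stood above the other controls, so that the size of the rise depends on that library. CG1678 (whe) had 3.88, 117 and 3.07 CPM in controls against 634, 1468 and 1014 CPM in row_RNAi2. CG45080 had 4.01, 32.4 and 2.61 CPM in controls against 394, 849 and 819 CPM in row_RNAi2. CG13947 had 1.74, 28.9 and 0.454 CPM in controls against 191, 357 and 1181 CPM in row_RNAi2. In each of these genes the lowest row_RNAi2 library exceeded control replicate 2, as the choice of genes without overlap required. CG16826 showed the same order with 2.54, 38.0 and 1.25 CPM in controls against 290.4, 543 and 565 CPM in row_RNAi2, and CG34212 with 0.535, 16.0 and 0.454 CPM in controls against 83.2, 151 and 127 CPM in row_RNAi2. The log2 fold changes were 5.73 for CG13947, 5.69 for CG44142, 5.67 for CG45080, 5.54 for CG43680, 5.01 for CG16826, 4.62 for CG1678, 4.62 for CG43679, 4.32 for CG34212 and 4.07 for CG33109. Without control replicate 2 they were 9.08, 8.35, 7.70, 8.30, 7.96, 8.22, 6.22, 7.90 and 5.81 in that order. Without row_RNAi2 replicate 3 the changes of CG13947 and CG43680 were 4.66 and 4.91. All 9 genes passed the test in each of these fits.

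**Figure D2:**
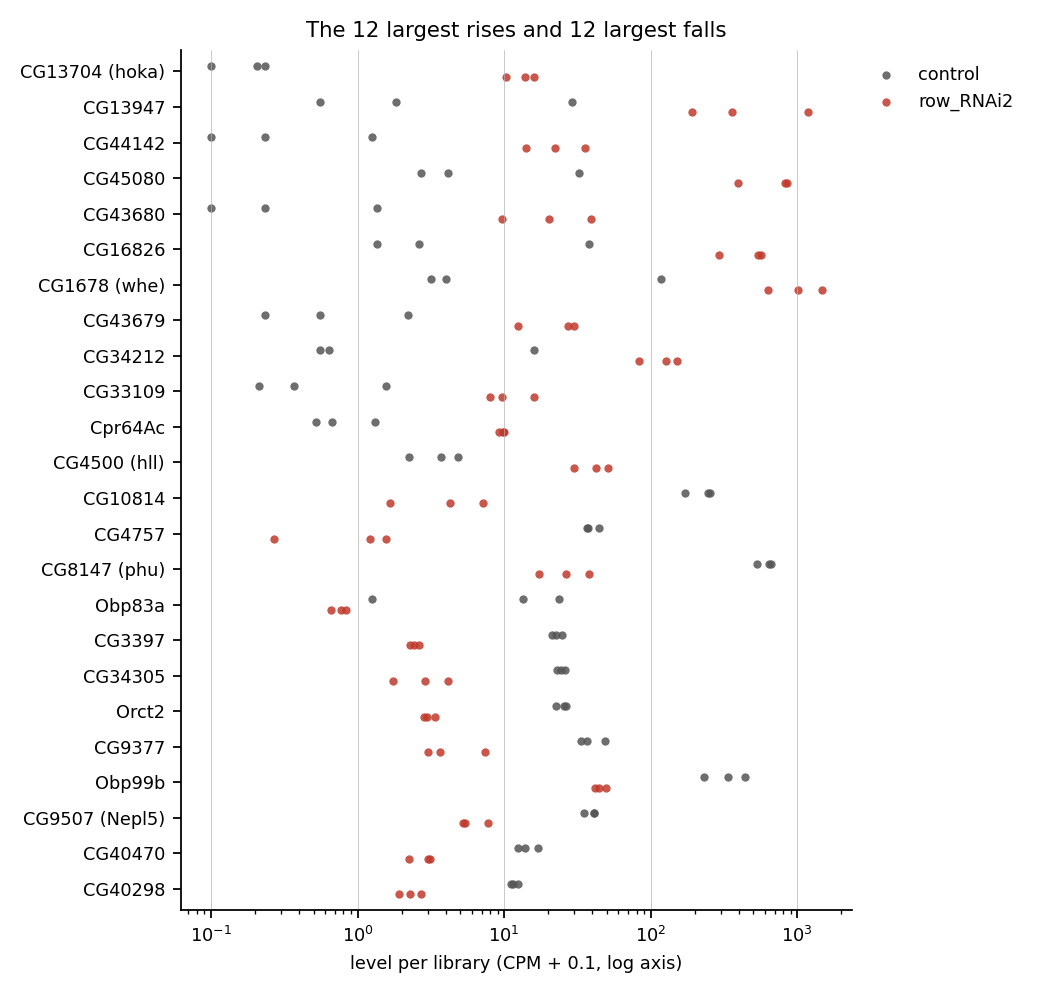
Level of the 12 genes with the largest rises (upper 12 rows) and the 12 with the largest falls (lower 12 rows) in each library, as CPM plus 0.1 on a log axis. Grey points are the 3 control libraries and red points the 3 row_RNAi2 libraries. The groups do not overlap in any row, which was a condition of the choice of genes. For CG13947, CG45080, CG16826, CG1678 and CG34212, 1 grey point lies well above the other 2.

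The largest falls were led by CG10814. CG10814 went from 171, 245 and 253 CPM to 7.04, 4.18 and 1.55 CPM (log2 fold change -5.86, SE 0.25, edgeR quasi-likelihood Benjamini-Hochberg adjusted p = 6.60e-11). CG8147 (phu), annotated as an alkaline phosphatase, went from 529, 662 and 639.6 CPM to 17.1, 26.2 and 37.6 CPM, a log2 fold change of -4.47. In both genes the control libraries stayed within a narrow band and every row_RNAi2 library was more than 10 times lower than the lowest control. CG4757 went from 36.4, 36.9 and 44.5 CPM to 0.168, 1.11 and 1.46 CPM (-5.22 on the log2 scale). Orct2, which encodes an organic cation transporter, went from 22.5, 25.6 and 26.5 CPM to 2.85, 3.25 and 2.74 CPM (-3.07), and its relative and neighbour Orct from 90.7, 113 and 110.4 CPM to 35, 39.5 and 35.1 CPM (-1.52). The neprilysin-like metallopeptidase gene CG9507 (Nepl5) had 40.7, 35.1 and 40.7 CPM in controls against 7.71, 5.29 and 5.11 CPM in row_RNAi2 (-2.74). CG3397, CG34305, CG9377, CG40470 and CG40298 had log2 fold changes of -3.29, -3.20, -3.06, -2.44 and -2.39. The log2 fold change of CG9377 was -3.65 without row_RNAi2 replicate 2.

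The called genes that gained most CPM included several that the fat body expresses. Lsp2, which encodes a storage hexamerin best known from the larva, went from 913, 938 and 1712 CPM to 4314, 6420.1 and 6049.9 CPM (log2 fold change 2.24, SE 0.19, edgeR quasi-likelihood Benjamini-Hochberg adjusted p = 2.21e-07). The yolk protein gene Yp3 had 24038, 32933 and 33828 CPM in controls against 45069.7, 47824 and 38053 CPM in row_RNAi2 (0.53 on the log2 scale), while its relative Yp1 had 0.18 and did not pass (edgeR quasi-likelihood Benjamini-Hochberg adjusted p = 0.361). Transferrin 1 (Tsf1), an iron carrier of the hemolymph, rose from 2435, 1932 and 2313 CPM to 3064, 3388 and 3922 CPM (0.64). Adh, alcohol dehydrogenase, rose from 11514, 11324 and 11766 CPM to 15630.2, 17441 and 16289 CPM (0.51). Adhr, its neighbour, had 297352 counts in controls against 297354 for Adh, so the deposited counts do not separate the pair. The immune peptide gene IM4 (Dso1) had 6321, 5746 and 6217 CPM in controls against 7096, 7472 and 7802 CPM in row_RNAi2 (0.29), and was no longer called once control replicate 2 was left out (edgeR quasi-likelihood Benjamini-Hochberg adjusted p = 0.158). Among the losses, CG34227 went from 1256, 1067 and 1145 CPM to 238, 239.8 and 193 CPM (log2 fold change -2.37, SE 0.10, edgeR quasi-likelihood Benjamini-Hochberg adjusted p = 6.60e-11), and the metallothionein gene MtnA, which binds copper and cadmium, from 6272, 5858 and 5957 CPM to 4894, 4155 and 4389 CPM (-0.43). The noncoding RNA MRE16 (lncRNA:CR34335) had 8551, 9968 and 10038 CPM in controls against 7341, 7687 and 7321 CPM in row_RNAi2 (-0.35), CG17108 changed by -0.33 and CG8343 by -0.60. The noncoding RNA CR40469 had -0.26 and was not called without control replicate 3 (adjusted p = 0.0901 in the edgeR quasi-likelihood test). Of 130 tested long noncoding RNA genes 17 were called (7 rose and 10 fell), beside 9.96% of all tested genes.

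Most antimicrobial peptide genes rose. Antimicrobial peptides are made by the fat body under the Toll and Imd pathways, which recognise fungal and bacterial cell walls. Of 17 tested antimicrobial peptide genes 12 rose and 1 fell, with a median log2 fold change of 1.53. Drosomycin (Drs), an antifungal peptide gene read out by Toll, went from 133, 128 and 133 CPM to 310.3, 367 and 405 CPM (log2 fold change 1.46, SE 0.09, edgeR quasi-likelihood Benjamini-Hochberg adjusted p = 6.52e-09). Defensin (Def), active against Gram-positive bacteria, went from 35.3, 32.5 and 24.3 CPM to 124, 132 and 140.2 CPM (2.11 on the log2 scale). For both, the 3 row_RNAi2 libraries lay more than 2 times above the highest control. The cecropin gene CecC had 5.75, 2.31 and 11.9 CPM in controls against 50.1, 20.3 and 30.0 CPM in row_RNAi2, and here control replicate 3 was high and row_RNAi2 replicate 1 highest of all. Its log2 fold change was 2.28, and 3.06 without control replicate 3. Its neighbours CecA1, CecA2 and CecB, close paralogs that may share reads, had 2.10, 2.45 and 2.41. Without row_RNAi2 replicate 1 these were 1.32, 1.61 and 1.73, and CecA1 (adjusted p = 0.102) and CecB (0.114) lost their calls in the edgeR quasi-likelihood test. CecA1 was not called without control replicate 1 either (0.0918), nor was CecB without any 1 of the controls (0.0559 to 0.125), while without control replicate 3 the changes of CecA1 and CecA2 were 3.30 and 3.54. The attacin gene AttD had 2 counts in all controls and 81 in row_RNAi2, a ratio of 37.7 (95% counting interval 10.1 to 317). AttD passed the count filter only through the row_RNAi2 libraries, so its direction in the count of 12 was set by the filter. Both control counts were in control replicate 1, and its fitted log2 fold change of 4.97 was 7.72 without that library. The count of rising genes was 9 without control replicate 1 and 5 with DESeq2. The gene that fell was Drsl3 (-0.39, named after its value was seen), and 2 genes fell without control replicate 2 and 3 without row_RNAi2 replicate 1.

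Recognition and signalling genes of these pathways also held rises. Of 37 tested Toll and Imd genes 10 rose and 0 fell, with a median of 0.15; in the other direction 0 had an unadjusted p below 0.05 and limma voom and DESeq2 called 0. The peptidoglycan recognition protein gene PGRP-SD went from 73.2, 65.4 and 67.6 CPM to 129, 109.6 and 94.8 CPM (0.69) and PGRP-SB1 from 193, 153 and 218 CPM to 317, 258 and 239 CPM (0.53). Spn27A, a serpin that blocks melanization, changed by 0.43, and grass, a protease of the Toll cascade, by 0.34. For all 4 genes the groups did not overlap, but 4 genes of the list rose without control replicate 1. Of 11 Turandot and JAK-STAT genes 4 rose and 0 fell (median 0.10; 1 fell at an unadjusted p below 0.05, 0 were called lower by limma voom or DESeq2, and 1 was called lower without row_RNAi2 replicate 1). TotA, a stress-induced peptide of the hemolymph, had 178, 198 and 158 CPM in controls against 319.5, 354 and 271 CPM in row_RNAi2 (0.82), TotM 1.0 and TotC 0.71, whereas the transcription factor gene Stat92E at 0.25 was not called without any 1 of 5 libraries (edgeR quasi-likelihood Benjamini-Hochberg adjusted p of 0.0777 to 0.157).

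The short IM peptides, which include the Bomanins and Daishos secreted under Toll, moved both ways. Of 16 tested genes 6 rose and 3 fell, with a median of 0.09. IM18 went from 252, 108 and 300.5 CPM to 682, 475 and 526 CPM (1.35), with control replicate 2 lowest. CG43202 (BomT1) went from 13.6, 18.7 and 17.4 CPM to 33.0, 36.6 and 42.1 CPM (1.17) and IM23 (BomBc1) from 285, 289 and 311 CPM to 429, 359.8 and 487 CPM (0.53). CG16836 (BomT2) fell instead, from 700.2, 677 and 677 CPM to 453, 497 and 504 CPM (log2 fold change -0.50, SE 0.07, edgeR quasi-likelihood Benjamini-Hochberg adjusted p = 0.000139). Without control replicate 2 the list had 3 genes that rose, and without row_RNAi2 replicate 2 it had 1 that fell. Of 6 lysozyme genes among the deposited symbols 2 were tested, and both rose from near 0. Both passed the count filter only through the row_RNAi2 libraries, so the direction of their change was set by the filter. LysS had 2 counts in controls and 127 in row_RNAi2, a ratio of 59.2 (95% counting interval 16.0 to 494), and its fitted log2 fold change of 5.62 was 4.99 without row_RNAi2 replicate 2. LysP had 0, 0.631 and 0.227 CPM in controls against 5.87, 12.9 and 1.55 CPM in row_RNAi2, with row_RNAi2 replicate 2 highest. The log2 fold change of LysP, 4.41, was 3.38 without row_RNAi2 replicate 2 and 5.64 without control replicate 2. Lysozymes are close paralogs that may share reads.

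Markers of hemocytes, the blood cells, moved both ways. Of 14 tested markers 1 rose and 4 fell (median -0.16). The prophenoloxidase genes PPO2 and PPO1, which encode the melanin-forming enzymes of crystal cells, had 231, 254 and 290.4 CPM in controls against 150.4, 154 and 139 CPM in row_RNAi2 (-0.81) and 111, 106 and 136 CPM in controls against 72.4, 71.7 and 71.2 CPM in row_RNAi2 (-0.72). Every row_RNAi2 library was below every control for both genes. The clotting gene Hml had -0.31 and was no longer called once control replicate 3 was left out (edgeR quasi-likelihood Benjamini-Hochberg adjusted p = 0.0525) or row_RNAi2 replicate 3 (0.0535), and without control replicate 3 the list had 2 genes that fell. Glt, a secreted basement membrane protein gene, rose by 0.40 on the log2 scale.

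Read against the 9.96% of all tested genes that were called, the lists spread widely. The share called was 76.5% for antimicrobial peptides, 64.7% for one-carbon and serine genes, 56.2% for IM peptides, 51.7% for odorant-binding proteins and 43.5% for genes of the fat body and lipid storage. It was 31.0% for genes of the peroxisome and fatty acid oxidation, 27.0% for Toll and Imd genes and 23.5% for glycolytic genes. Cuticle genes, Turandot and JAK-STAT genes and insulin and starvation genes each had 36.4%, hemocyte markers 35.7% and cytochrome P450 genes 31.25%. Glutathione S-transferases had 31.0%, organic cation and major facilitator transporters 30.8%, clock genes 23.1%, UDP-glycosyltransferases 22.2% and metal-handling genes 21.1%. Over all tested genes the share called depended on level, with 19.7% at 50 to 200 CPM and 24.9% over 200 CPM. The lists were not matched for level, so a share above 9.96% is not by itself an excess. The shares of neuropeptide precursors (9.38%), heat-shock proteins (10%), activity-regulated genes (10%), muscle genes (10.3%) and yolk and sex-determination genes (11.1%) lay near the background. Genes of the ATF4 and unfolded protein response had 12% and retinoid and carotenoid genes 12.5%. Ecdysone and juvenile hormone genes had 13.8%, glial genes 15% and eye pigment genes 15.8%. Chemosensory receptors (7.69%), monoamine genes (5%), opsin and phototransduction genes (3.12%) and cytosolic ribosomal protein genes (2.38%) lay below the background.

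**Figure D3:**
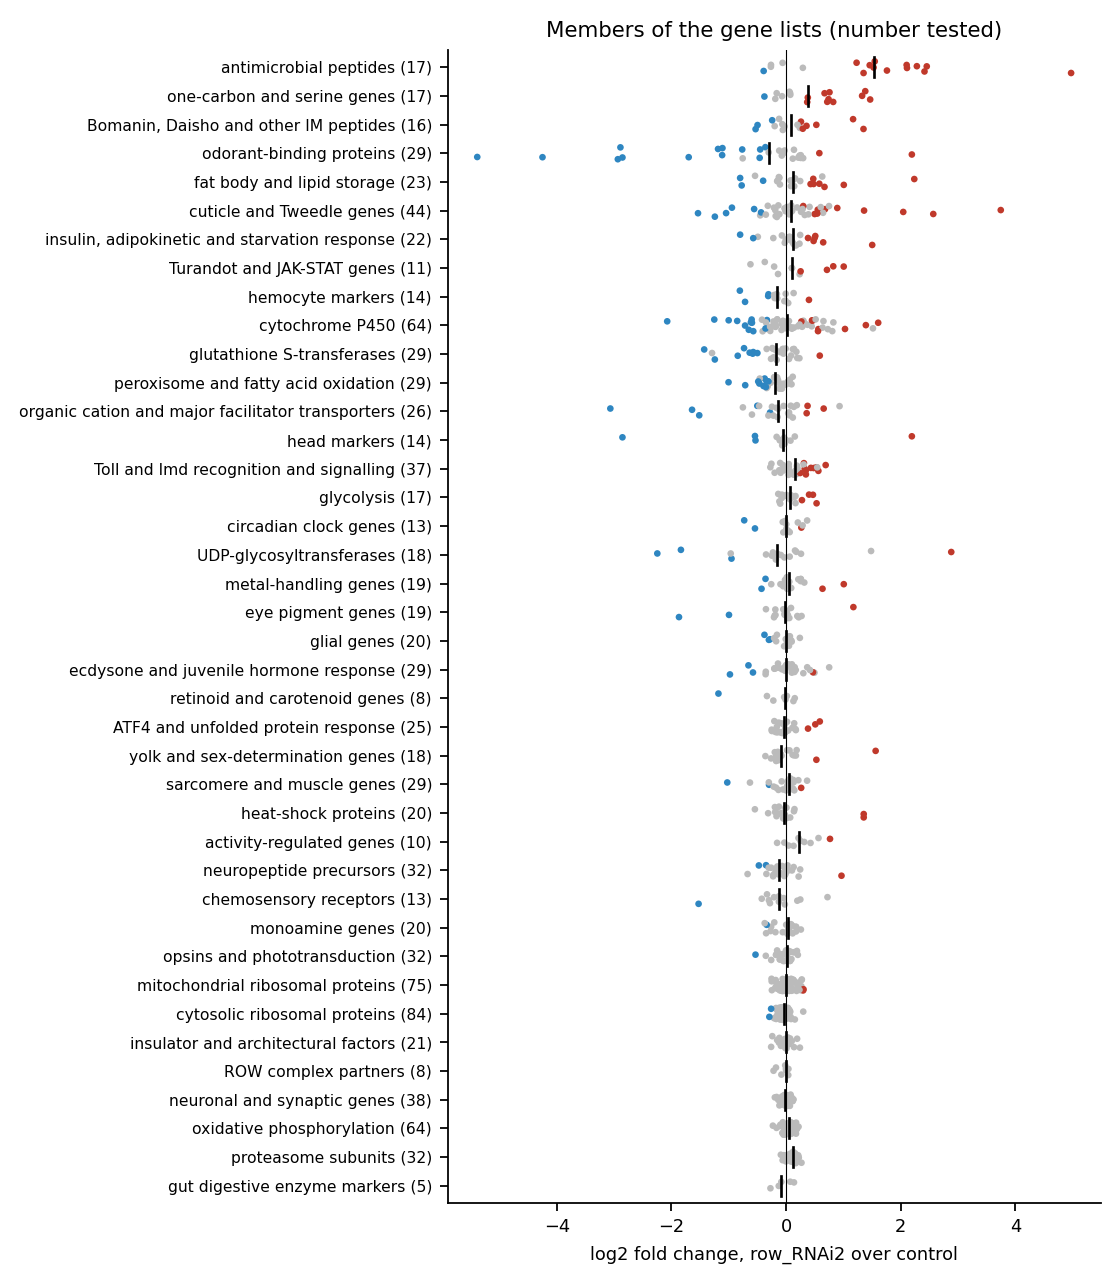
Log2 fold change of row_RNAi2 over control for each tested member of the gene lists with at least 5 tested members, ordered by the share of members called, with the number tested in brackets. Red points are members called higher, blue points members called lower, grey points members not called, and black bars mark list medians, which lie between -0.30 for odorant-binding proteins and 1.53 for antimicrobial peptides.

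Most enzymes that move one-carbon units through folate, glycine and serine rose. Of 17 tested genes 10 rose and 1 fell, and the median was 0.38. The gene pug, which encodes the trifunctional folate enzyme of the cytosol, went from 180.3, 175 and 189 CPM to 523, 536 and 445 CPM (log2 fold change 1.47, SE 0.09, edgeR quasi-likelihood Benjamini-Hochberg adjusted p = 2.51e-09). Sardh, sarcosine dehydrogenase, went from 27.2, 30.1 and 31.6 CPM to 85.2, 77.4 and 70.4 CPM (1.38). CG3999, the decarboxylating subunit of the glycine cleavage system, went from 25.7, 26.2 and 25.7 CPM to 59.7, 75.2 and 58.8 CPM (1.33), and CG6415, its aminomethyltransferase, from 82.3, 84.9 and 85.5 CPM to 148, 142 and 126 CPM (0.72). The controls of each of these genes stayed within a narrow range, and no row_RNAi2 library came near it. Nmdmc, the mitochondrial methylene-tetrahydrofolate dehydrogenase, had 42.8, 45.6 and 58.0 CPM in controls against 70.9, 86.0 and 101 CPM in row_RNAi2 (0.82). The other 5 rising genes had log2 fold changes of 0.37 to 0.76. The gene that fell, Cbs (cystathionine beta-synthase) at -0.38, named after its value was seen, was not called without control replicate 2, control replicate 3 or row_RNAi2 replicate 3. Of 25 genes of the ATF4 and unfolded protein response 3 rose and 0 fell (median -0.03; 3 of its genes fell at an unadjusted p below 0.05, and limma voom and DESeq2 each called 1 lower). They were Thor, the 4E-BP translation inhibitor (245, 257 and 247 CPM in controls against 312, 341 and 324 CPM in row_RNAi2, 0.38), Sesn (0.51) and trbl (0.59), the last of which lost its call without any 1 of 5 libraries (edgeR quasi-likelihood Benjamini-Hochberg adjusted p of 0.0583 to 0.322).

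Some genes of the peroxisome and of fatty acid oxidation fell, and none rose. Of 29 tested genes 9 fell and 0 rose, with a median of -0.20; 0 rose at an unadjusted p below 0.05, and limma voom and DESeq2 called 0 higher. Pmp70 (Abcd3), a peroxisomal fatty acid transporter, went from 125, 121 and 131 CPM to 67.2, 63.7 and 57.5 CPM (log2 fold change -1.0, SE 0.08, edgeR quasi-likelihood Benjamini-Hochberg adjusted p = 1.25e-07). CG12262 (Mcad), a medium-chain acyl-CoA dehydrogenase of mitochondria, went from 358, 378 and 417 CPM to 222, 247 and 234 CPM (-0.71). The thiolase gene yip2 had 303, 346 and 366 CPM in controls against 232, 255 and 238 CPM in row_RNAi2 (-0.49), and scu, a mitochondrial hydroxyacyl-CoA dehydrogenase, had 382, 375 and 409 CPM in controls against 292, 289.6 and 263 CPM in row_RNAi2 (-0.47). For all 4 genes the highest row_RNAi2 library lay below the lowest control. The other 5 falls were between -0.39 and -0.31, and the plot of both metabolic lists shows the members that were not called.

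**Figure D4:**
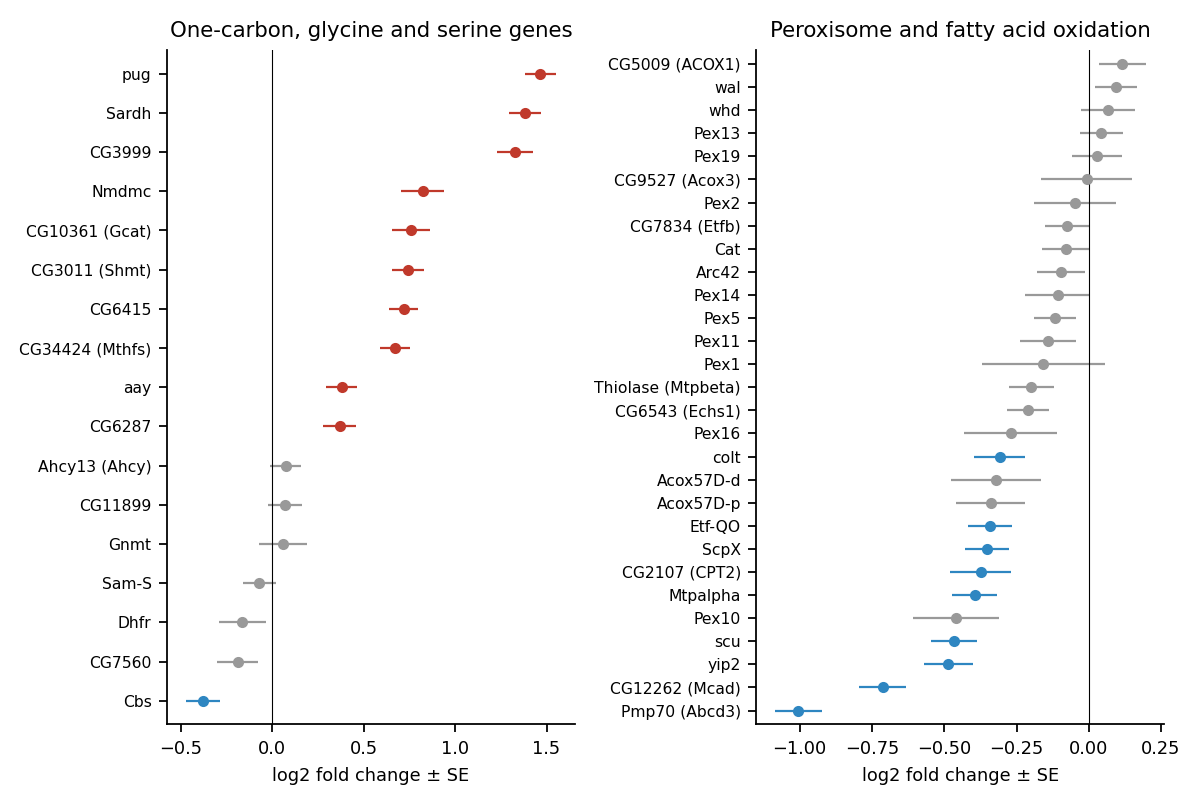
Log2 fold change of row_RNAi2 over control with its standard error (bars) for the 17 tested one-carbon, glycine and serine genes (left) and the 29 tested peroxisome and fatty acid oxidation genes (right). Red points were called higher, blue points called lower and grey points not called. On the left 10 points are red and 1 is blue, and on the right 9 are blue and none is red.

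Lipid storage and nutrient-response genes moved both ways. Of 23 tested genes of the fat body and of lipid storage, 7 rose and 3 fell (median 0.13). Beside Lsp2, the acyl-CoA synthetase gene bgm went from 56.6, 53.4 and 48.6 CPM to 119.5, 105 and 95.2 CPM (1.01). Lsd-1, the perilipin that coats lipid droplets, went from 246, 234 and 261 CPM to 133, 157 and 134 CPM (-0.80), and Acsl, a long-chain acyl-CoA synthetase gene, from 329, 377 and 347 CPM to 236, 196 and 184 CPM (-0.78). Of 22 insulin, adipokinetic and starvation genes 6 rose and 2 fell (median 0.12). The glucosidase gene tobi, a target of insulin and adipokinetic signals, went from 126, 109 and 157 CPM to 344, 391 and 376 CPM (log2 fold change 1.5, SE 0.11, edgeR quasi-likelihood Benjamini-Hochberg adjusted p = 3.11e-08), and Sesn, which restrains TOR signalling, went from 65.9, 62.7 and 60.6 CPM to 87.7, 88.2 and 93.1 CPM (0.51). ImpL2, a binding protein that blocks insulin-like peptides, fell from 48.6, 48.0 and 54.4 CPM to 35.2, 33.0 and 33.6 CPM (-0.57). Of 17 glycolytic genes 4 rose and 0 fell (median 0.07; 0 fell at an unadjusted p below 0.05, and limma voom and DESeq2 called 0 lower). Pgi, phosphoglucose isomerase, went from 614, 612 and 662 CPM to 978, 904 and 847 CPM (0.53), Hex-C, a hexokinase, changed by 0.40, ImpL3 (Ldh) by 0.47 and Pgm by 0.28. Without control replicate 1 or row_RNAi2 replicate 2 the list had 2 rising genes, and ImpL3 (adjusted p = 0.0621 and 0.113) and Pgm (0.165 and 0.242) were then not called in the edgeR quasi-likelihood test. Pgm was called only with all 6 libraries or without row_RNAi2 replicate 3.

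Detoxification enzymes moved both ways. Of 29 tested glutathione S-transferase genes 8 fell and 1 rose (median -0.17). GstO1 had 13.2, 12.7 and 9.88 CPM in controls against 4.36, 5.85 and 4.66 CPM in row_RNAi2 (-1.24), GstE3 had -0.57 and GstT1 -0.58, while GstO2 rose from 82.5, 93.1 and 91.2 CPM to 126, 143 and 132 CPM (0.59). Of 64 cytochrome P450 genes 12 fell and 8 rose (median 0.02). Cyp6w1 went from 153, 158 and 175 CPM to 65.7, 64.5 and 73.1 CPM (log2 fold change -1.25, SE 0.09, edgeR quasi-likelihood Benjamini-Hochberg adjusted p = 1.21e-08) and Cyp4d20 fell by 0.72 on the log2 scale. The neighbours Cyp309a1 and Cyp309a2 rose, the former from 31.4, 21.9 and 24.5 CPM to 82.1, 77.5 and 76.1 CPM (1.61) and the latter from 14, 11.9 and 13.6 CPM to 25.3, 28.6 and 26.1 CPM (1.03). Of 18 UDP-glycosyltransferase genes 3 fell and 1 rose (median -0.16). Ugt86Dd (Ugt35C1) went from 57.2, 58.6 and 60.3 CPM to 16.3, 15.8 and 17.3 CPM (-1.83), CG30438 (Ugt50B3) changed by -2.25 and Ugt35b by -0.95, and CG5999 (Ugt37A3) rose from 4.95, 3.68 and 4.88 CPM to 28.0, 28.8 and 41.1 CPM (2.88). Without control replicate 3 the list had 3 genes that rose. Of 26 organic cation and major facilitator transporter genes 5 fell and 3 rose (median -0.14). Beside Orct and Orct2, MFS14 went from 112, 138 and 135 CPM to 37.2, 40.4 and 44.9 CPM (-1.64) and MFS9 from 25.1, 23.8 and 23.4 CPM to 33.9, 41.0 and 38.0 CPM (0.66). Without control replicate 1, row_RNAi2 replicate 1 or row_RNAi2 replicate 2 this list had 1 rising gene, and without row_RNAi2 replicate 2 it had 3 falling genes.

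Odorant-binding proteins, small carriers secreted into the lymph of antennal and taste hairs, had more falls than rises. Of 29 tested genes 13 fell and 2 rose, with a median of -0.30. Obp99b went from 335, 229 and 436 CPM to 49.1, 41.7 and 44.5 CPM (log2 fold change -2.89, SE 0.17, edgeR quasi-likelihood Benjamini-Hochberg adjusted p = 2.40e-09). Obp28a went from 27.4, 23.1 and 30.7 CPM to 11.4, 11.6 and 14.1 CPM (-1.11) and Obp19c from 9.23, 10.2 and 9.08 CPM to 2.85, 2.97 and 2.92 CPM (-1.70). Obp99a moved the other way, from 191, 228 and 320.1 CPM to 1182, 1188 and 1014 CPM (2.19), the 3 row_RNAi2 libraries lying more than 3 times above the highest control. Obp83a was uneven among the controls. It had 13.4, 1.16 and 23.7 CPM in controls against 0.671, 0.557 and 0.730 CPM in row_RNAi2 (-4.25), so that control replicate 2 stood near the row_RNAi2 level, and limma voom did not call the gene (adjusted p = 0.169). Without control replicate 3 its change was -3.39. Obp83a passed the count filter only through the controls, so the direction of its change was set by the filter. The number of rising genes in this list ranged from 1 to 4 as single libraries were left out, with 4 without row_RNAi2 replicate 3 and 1 without control replicate 1, control replicate 2, row_RNAi2 replicate 1 or row_RNAi2 replicate 2. The odorant carrier lush had 1.74, 2.63 and 2.84 CPM in controls against 0.168, 0.557 and 0.183 CPM in row_RNAi2 (-2.85; -3.67 without row_RNAi2 replicate 2). As with Obp83a, lush passed the count filter only through the controls, which set its direction. Of 13 tested chemosensory receptor genes 0 rose and 1 fell (median -0.13; 0 rose at an unadjusted p below 0.05 and limma voom and DESeq2 called 0 higher). It was Orco, the co-receptor of odorant receptors, with 2.68, 3.05 and 3.07 CPM in controls against 1.01, 1.30 and 0.730 CPM in row_RNAi2 (-1.53). How much antennal tissue each library held was not tested.

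In the eye, few genes of the light-sensing machinery were called. Of 32 tested opsin and phototransduction genes 0 rose and 1 fell (median 0.01; 1 rose at an unadjusted p below 0.05, and limma voom and DESeq2 called 0 higher and 2 lower). The blue opsin gene Rh5 went from 151, 159 and 164 CPM to 112, 108 and 107 CPM (log2 fold change -0.53, SE 0.08, edgeR quasi-likelihood Benjamini-Hochberg adjusted p = 9.81e-05). Rh2, the opsin of the ocelli, had -0.26 and Rh3 -0.17, and neither passed. Of 8 retinoid and carotenoid genes 1 fell and 0 rose (median -0.02; 0 rose at an unadjusted p below 0.05 and limma voom and DESeq2 called 0 higher). It was rdhB, a retinol dehydrogenase of the visual chromophore pathway, which went from 203, 185 and 175 CPM to 82.0, 87.3 and 78.8 CPM (-1.18). Of 19 eye pigment genes 2 fell and 1 rose (median -0.02). The gene se (sepia), a glutathione transferase relative needed for the red drosopterins, went from 142, 152 and 150.0 CPM to 45.9, 34.0 and 42.5 CPM (log2 fold change -1.87, SE 0.10, edgeR quasi-likelihood Benjamini-Hochberg adjusted p = 6.25e-10). The gene w (white), a pigment precursor transporter, rose from 8.16, 5.89 and 6.36 CPM to 12.1, 16.7 and 16.1 CPM (1.17). In fly transgenesis w is a common marker of inserted constructs, and the marker of the row_RNAi2 insertion is not given in the labels, so its part in this rise was not tested. Of 4 tested transgene marker genes w was the one called, with v at -0.21, ry at 0.27 and y at -0.12; without row_RNAi2 replicate 3 ry was called too, at 0.33. The third eye pigment call, cd at -1.0, was lost without any 1 of 5 libraries (edgeR quasi-likelihood Benjamini-Hochberg adjusted p of 0.050 to 0.0921).

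Neuronal transcripts had small log2 fold changes. Of 38 tested neuronal and synaptic genes edgeR called 0, with 1 at an unadjusted p below 0.05, and limma voom and DESeq2 called 0. Their log2 fold changes lay between -0.20 and 0.13 (median -0.02), with unc-13, a priming factor of synaptic vesicles, lowest at 88.1, 89.1 and 85.3 CPM in controls against 77.1, 74.0 and 78.1 CPM in row_RNAi2. Of 20 monoamine genes 1 fell and 0 rose (median 0.03; 0 rose at an unadjusted p below 0.05, and limma voom and DESeq2 called 0 higher and 2 lower). Ddc, the decarboxylase that makes dopamine and serotonin, had 55.0, 52.1 and 47.4 CPM in controls against 39.1, 43.9 and 38.6 CPM in row_RNAi2 (-0.34), and was not called without control replicate 1 (adjusted p = 0.0651) or row_RNAi2 replicate 3 (0.0563) in the edgeR quasi-likelihood test. Without control replicate 3 the list had 2 genes that fell. Of 32 neuropeptide genes 1 rose and 2 fell (median -0.12). Nplp4 went from 13.5, 12.7 and 14 CPM to 25.7, 23.9 and 28.8 CPM (0.97), and Dsk, the precursor of the satiety peptide drosulfakinin, from 94.2, 90.9 and 93.5 CPM to 62.5, 69.5 and 67.6 CPM (-0.48). AstC at -0.35 lost its call without any 1 control or row_RNAi2 replicate 1 (edgeR quasi-likelihood Benjamini-Hochberg adjusted p of 0.0518 to 0.0878), and without control replicate 3 the list had 2 genes that rose. Of 10 activity-regulated genes 1 rose and 0 fell (median 0.23; 0 fell at an unadjusted p below 0.05 and limma voom and DESeq2 called 0 lower). It was Arc1, a capsid-like protein gene of synapses, which went from 145, 115 and 154 CPM to 208, 262 and 232 CPM (0.77); without row_RNAi2 replicate 3 sr was called too, at 0.71.

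Of 20 glial genes 3 fell and 0 rose (median 0.00; 0 rose at an unadjusted p below 0.05, and limma voom and DESeq2 called 0 higher). They were Mdr65, a drug exporter of the blood-brain barrier (35.4, 38.8 and 35.3 CPM in controls against 26.8, 30.4 and 26.9 CPM in row_RNAi2, -0.38), Gat, the GABA transporter of glia (48.2, 50.9 and 44.9 CPM in controls against 38.2, 39.1 and 39.4 CPM in row_RNAi2, -0.30), and CG6126 (-0.28). None of the 3 was called without control replicate 2, and 1 was called without row_RNAi2 replicate 2. Of 13 clock genes 1 rose and 2 fell (median 0.00). The repressor gene cwo went from 47.2, 50.8 and 44.4 CPM to 24.3, 28.0 and 32.4 CPM (-0.73) and the clock output gene takeout (to) from 40.4, 47.3 and 49.3 CPM to 37.1, 32.9 and 25.7 CPM (-0.54). The blue-light receptor gene cry at 0.27 lost its call without control replicate 1, control replicate 3, row_RNAi2 replicate 2 or row_RNAi2 replicate 3 (edgeR quasi-likelihood Benjamini-Hochberg adjusted p of 0.0873 to 0.163). The sources used here do not give the hour of collection.

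The genes listed as partners of ROW, BEAF-32 among them, did not pass the test. Of the 8 tested genes on this list edgeR called 0, 0 had an unadjusted p below 0.05, and limma voom and DESeq2 called 0. BEAF-32 had 17.5, 19.8 and 16.8 CPM in controls against 17.3, 20.7 and 17.4 CPM in row_RNAi2, HP1c had 23.7, 26.1 and 22.6 CPM in controls against 23.1, 27.1 and 21.8 CPM in row_RNAi2 and woc had 24.3, 25.1 and 22.6 CPM in controls against 25.1, 24.9 and 24.1 CPM in row_RNAi2. The groups overlapped for all 3 genes, and the log2 fold changes of the 8 genes ran from -0.22 (HP1b) to 0.04 (woc and BEAF-32). The histone kinase gene JIL-1 had -0.08, Ubqn -0.02, pzg -0.18 and Chro, the chromodomain protein Chromator, 0.0009. Of the 8 genes, HP1b and pzg kept the sign of their change under every alternative run. Among 21 insulator and architectural factor genes edgeR called 0 with 1 at an unadjusted p below 0.05, and limma voom and DESeq2 called 0. That gene was Cp190, a co-factor of most fly insulators, with 18.1, 18 and 19.1 CPM in controls against 16.3, 15.1 and 14.9 CPM in row_RNAi2 (-0.26; SE 0.11, edgeR quasi-likelihood Benjamini-Hochberg adjusted p = 0.183).

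Large complexes of basic metabolism showed few calls. Of 64 oxidative phosphorylation genes edgeR called 0, with 6 at an unadjusted p below 0.05, and limma voom and DESeq2 called 1 each. The subunit gene ND-18 had 228, 241 and 232 CPM in controls against 277, 268 and 271 CPM in row_RNAi2 (0.22, groups apart but not called), and without row_RNAi2 replicate 1 ND-49 was called lower, at -0.34. Of 32 proteasome genes edgeR called 0, with 7 at an unadjusted p below 0.05, all 7 higher, and limma voom and DESeq2 called 0; the median was 0.13. Leaving out row_RNAi2 replicate 1 gave 1 call (Rpt4, 0.25) and leaving out row_RNAi2 replicate 3 gave 1 (Rpn11, 0.35). Of 84 cytosolic ribosomal protein genes 2 fell and 0 rose (median -0.04; 1 rose at an unadjusted p below 0.05 and limma voom and DESeq2 called 0 higher). These 2, sta at -0.29 and RpS3A at -0.26, were not called without control replicate 2, control replicate 3, row_RNAi2 replicate 2 or row_RNAi2 replicate 3, and without row_RNAi2 replicate 1 the list had 6 falls. Of 75 mitochondrial ribosomal protein genes 2 rose and 0 fell (median -0.0043; 3 fell at an unadjusted p below 0.05, and DESeq2 called 0 in either direction and limma voom 0 lower). The 2 were mRpL51 at 0.30 and mRpS30 at 0.30, and each library left out gave 0 or 1 rising gene.

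Cuticle genes moved both ways. Of 44 tested cuticle and Tweedle genes 10 rose and 6 fell (median 0.09), and without row_RNAi2 replicate 2 the list had 3 falls. Cpr72Ec went from 429.6, 461 and 466 CPM to 802, 811 and 906 CPM (0.89). Edg91, a gene first known as ecdysone-dependent, went from 0.669, 1.26 and 1.14 CPM to 6.37, 5.01 and 7.39 CPM (2.57), and Cpr11B fell from 60.9, 55.6 and 62.3 CPM to 34.2, 32.3 and 27.1 CPM (-0.94). Of 29 ecdysone and juvenile hormone genes 1 rose and 3 fell (median 0.00). The juvenile hormone epoxide hydrolase genes Jheh1 and Jheh2 fell, the former from 123, 114 and 119.8 CPM to 60.5, 65.1 and 55.2 CPM (-0.98) and the latter from 226, 221 and 225 CPM to 156, 151 and 143 CPM (-0.58). Eip71CD (MsrA), a methionine sulfoxide reductase gene, had -0.66. The 1 rise was ImpL3, given above, and 2 genes rose without row_RNAi2 replicate 3. Of 19 metal-handling genes 2 rose and 2 fell (median 0.06). Beside Tsf1 and MtnA, the zinc transporter gene ZnT77C went from 5.62, 5.26 and 5.11 CPM to 10.2, 11.1 and 10.6 CPM (1.01), and the copper importer gene Ctr1B at -0.36 lost its call without any 1 library except row_RNAi2 replicate 2 (edgeR quasi-likelihood Benjamini-Hochberg adjusted p of 0.0520 to 0.112).

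Of 20 heat-shock protein genes 2 rose and 0 fell (median -0.04; 1 fell at an unadjusted p below 0.05 and limma voom and DESeq2 called 0 lower). The 2 symbols, Hsp22 and Hsp67Bb, had identical counts in every library, so the deposited counts do not separate them. The list had 10% called, beside 9.96% of all tested genes, and both calls rest on the same counts. Hsp22, a small heat-shock protein of mitochondria, had 5.22, 5.36 and 6.25 CPM in controls against 12.7, 13.4 and 16.6 CPM in row_RNAi2 (1.35). Of 18 yolk and sex-determination genes 2 rose and 0 fell (median -0.09; 0 fell at an unadjusted p below 0.05 and limma voom and DESeq2 called 0 lower). Beside Yp3, fit, a fat body peptide gene higher in females, went from 252, 332 and 466 CPM to 992, 1181 and 930.3 CPM (log2 fold change 1.56, SE 0.15, edgeR quasi-likelihood Benjamini-Hochberg adjusted p = 1.50e-06). Of 29 sarcomere and muscle genes 1 rose and 2 fell (median 0.05), all 3 of them actins. Act79B had 136, 157 and 70.4 CPM in controls against 28.8, 44.6 and 101 CPM in row_RNAi2, with overlapping groups, and its change of -1.03 was -1.69 without row_RNAi2 replicate 3. Act57B (0.26), Act87E (-0.30) and Act79B each lost the call without control replicate 1, control replicate 2 or row_RNAi2 replicate 2 (edgeR quasi-likelihood Benjamini-Hochberg adjusted p of 0.0676 to 0.215).

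Markers of tissues outside the head were summed in each library. The 20 gut enzyme genes, 5 of them tested, summed to 283 to 311 CPM of total counts in the 6 libraries, 4 of the 20 were at 0 in all 6, and edgeR called 0 of them, with 0 at an unadjusted p below 0.05 and 0 by limma voom and DESeq2. The 18 ovary and eggshell genes summed to 11.7 to 17.0, with 2 tested, and the 21 testis and accessory gland genes to 1.85 to 2.12 in controls and to 2.25, 3.30 and 7.68 in row_RNAi2, with 1 tested. For both lists edgeR called 0, 0 had an unadjusted p below 0.05 and limma voom and DESeq2 called 0. The testis and accessory gland sum was highest in row_RNAi2 replicate 3, and its part in other values was not tested.

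The response of row_RNAi2 differed from that of row_RNAi1 in many genes. Tested directly in a fit of all 8 libraries, 1092 of 9129 genes differed between the lines (12.0%; 5.36% higher and 6.61% lower in row_RNAi2). Without 1 of the 2 row_RNAi1 libraries the number was 601 (without replicate 1) or 631 (without replicate 2). Of the 909 genes called against control in row_RNAi2, 378 also differed from row_RNAi1: 61 rose and were above that line, 158 rose and were below it, 48 fell and were below it, and 111 fell and were above it. The lines share their 3 controls, so the values against control are given side by side only. Among antimicrobial peptide genes 12 of 17 differed between the lines, and Drs had 1.46 in row_RNAi2 and 2.76 in row_RNAi1 (difference -1.31, SE 0.10, edgeR quasi-likelihood Benjamini-Hochberg adjusted p = 6.13e-08). Among one-carbon genes 15 of 17 differed, and Nmdmc had a log2 fold change of 0.82 in row_RNAi2 and 2.71 in row_RNAi1.

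Some genes called in row_RNAi2 were not called in row_RNAi1 and differed between the lines. Lsp2 had 1566 and 849.6 CPM in row_RNAi1, around the level of the controls, and differed between the lines by 2.18 on the log2 scale (SE 0.26, edgeR quasi-likelihood Benjamini-Hochberg adjusted p = 1.49e-05). Obp99a had 236 and 122 CPM there, a log2 fold change of -0.44 against 2.19 in row_RNAi2. The log2 fold change of w was -0.22 in row_RNAi1 against 1.17 in row_RNAi2 (difference 1.39), and that of Cyp309a2 was 0.10 against 1.03 (difference 0.92). The gene tobi was called in opposite directions, with 68.2 and 39.2 CPM in row_RNAi1 (-1.26 against 1.5), as did CG7509, which had 13.2, 13 and 11.0 CPM in controls against 22.1, 22.1 and 21.3 CPM in row_RNAi2, and 2.85 and 2.89 CPM in the other line (-2.08 against 0.81). The plot of the 12 genes that differ most sets the 3 groups side by side.

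**Figure D5:**
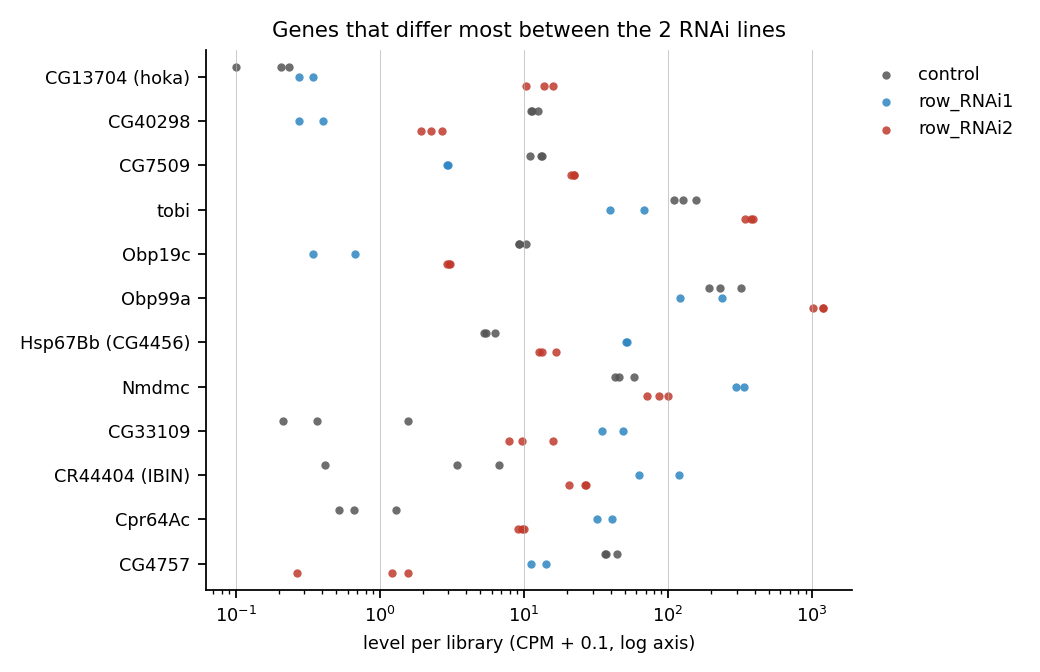
Level in each library (CPM plus 0.1, log axis) of the 6 genes most above row_RNAi1 in row_RNAi2 and the 6 most below it, among genes called in both contrasts with at least 5 CPM. Grey points are the 3 controls, blue points the 2 row_RNAi1 libraries and red points the 3 row_RNAi2 libraries, and for tobi and CG7509 the grey points lie between the blue and the red.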

How the data were processed

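Heads of Actin-gal4/+ controls (3 libraries), row_RNAi2 (3) and row_RNAi1 (2) were sequenced as RNAtag-Seq libraries. The authors deposited raw counts per gene symbol, 1 column per library, not normalised. Reads were aligned with STAR to dm3, per the submitters' processing notes. The counting program, annotation, use of strand and any molecular identifiers are not given in the sources used here, so a gene and its antisense partner cannot be told apart, and intervals cover counting error only. Totals of 6230666 to 11212213 counts limit the precision of genes with few counts.

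Genes with at least 10 counts in at least 3 of the 6 libraries were tested (9129), in R 4.3.3 with edgeR 4.0.16 (trimmed mean of M-values scaling, quasi-likelihood test, Benjamini-Hochberg adjustment, called below 0.05). CPM were computed from these counts with the scaled library sizes. The contrast of row_RNAi2 with row_RNAi1 came from a fit of all 8 libraries over the same genes. The code was tested on simulated data. Alternatives were other scalings, filters, DESeq2 1.42.0, limma 3.58.1 voom, all 8 libraries, a replicate block and each library left out in turn. The exact permutation test used scipy 1.17.1. Library pairs of a group differed by more than sampling noise (chi-square per degree of freedom of at least 6.23), so none was merged.

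Deposited symbols were matched to a Release 6 gene table for current names and neighbours only (10981 by symbol, 2704 by synonym, 57 ambiguous, 39 unmatched). Of the entries of 44 gene lists, 51 were not in the table, and 50 tested symbols share identical counts with another. The comparison, its members and the lists were chosen with earlier results of these data known. Named are row, the 12 largest log2 fold changes each way among called genes of at least 5 CPM without overlap of the groups, the 6 called genes each way with the largest change in CPM, up to 4 members per list with the smallest p, the 6 genes each way that differ most between the lines, the members of the 3 longest runs of called neighbours (runs of equal length ordered by their mean absolute log2 fold change), and all ROW partners and transgene markers.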

Additional observations from a re-analysis of the deposited data

Results flagged for a closer look

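Of the genes called against control in row_RNAi2, 12 with a large and tested difference between the lines are given here; each difference is row_RNAi2 minus row_RNAi1 on the log2 scale, was itself tested in the 8-library fit and was called. The lines share their controls, and row_RNAi1 has 2 libraries.

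Above row_RNAi1 in row_RNAi2 were CG13704 (difference 5.89, SE 0.37), CG40298 (difference 3.12, SE 0.42), CG7509 (difference 2.89, SE 0.15), tobi (difference 2.75, SE 0.18), Obp19c (difference 2.75, SE 0.36) and Obp99a (difference 2.62, SE 0.23). For CG40298 and Obp19c both lines were below control, with log2 fold changes of -2.39 and -1.70 in row_RNAi2 and of -5.53 and -4.46 in row_RNAi1.

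Below row_RNAi1 were CG4757 (difference -3.62, SE 0.27), the cuticle protein gene Cpr64Ac (difference -1.95, SE 0.14), the infection-induced gene CR44404 (IBIN; difference -1.94, SE 0.27), CG33109 (difference -1.92, SE 0.23), Nmdmc (difference -1.90, SE 0.12) and Hsp67Bb, whose counts equal those of Hsp22 (difference -1.87, SE 0.11). CG4757 fell by 5.22 on the log2 scale in row_RNAi2, against -1.61 in row_RNAi1. The other 5 rose in both lines, CR44404 from 3.34, 0.316 and 6.59 CPM to 26.5, 20.4 and 26.7 CPM (2.86 on the log2 scale; 2.25 and 3.86 without control replicates 2 and 3) against 4.79 in row_RNAi1.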

How the results depend on the processing

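The counts of 475 genes higher and 434 lower ranged from 354 to 481 and from 344 to 433 as each of the 6 libraries was left out in turn, and the change of row from -1.0 to -0.74. Other scalings, filters, tests and the 8-library fit gave 418 to 593 higher and 372 to 517 lower, all within 1.5 times of the counts reported. Of 2880 pairs of a named gene and an alternative, 2699 kept their direction and their side of the threshold, 125 lost the call and 34 gained one. The other 22 changed sign, in 11 genes called in neither fit. Chro (0.0009) was -0.0039 with upper-quartile scaling, -0.001 with DESeq2 and -0.0089 in the 8-library fit, and HP1c was 0.0002 with no filter. As single libraries were left out the log2 fold change ranged over -0.0715 to 0.0461 for Chro, -0.1101 to 0.0734 for HP1c, -0.0574 to 0.1058 for BEAF-32, -0.0057 to 0.0643 for woc, -0.0777 to 0.0417 for Ubqn, -0.1871 to 0.0510 for JIL-1, -0.4606 to 0.1949 for y, -0.4510 to 0.0490 for Mal-A1, -0.0468 to 0.1819 for Amy-p, -0.1015 to 0.6787 for Cp19 and -0.3259 to 0.0493 for grk. The number of genes that differ between the lines, 1092, ranged from 601 to 1055 as libraries of the 2 lines were left out (601 and 631 without row_RNAi1 replicates 1 and 2); a group of 1 library is then assumed to vary like the others.

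Replicate numbers occur in both groups, but nothing says that they mark a shared batch. With the replicate block, 434 genes were higher and 381 lower, row had -0.89 and 990 genes differed between the lines. Deviations of same-numbered libraries from their group means correlated at 0.0216, 0.0216 and -0.0392, and not every library correlated best with its own number.

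Depth limits genes of few counts: 4652 symbols were not tested, 388 of them at 0 in all 6 libraries, and 181 genes reached 10 counts in exactly 2 libraries.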

Other observations

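Several called genes lie side by side on the chromosomes. Among 9054 pairs of neighbouring tested genes, 176 (1.94%) had both members called and 125 of these moved the same way. There were 18 runs of 3 or more genes called in 1 direction. With 9.96% of all tested genes called, some such pairs arise from placement alone, and their expected number was not computed. The longest, on arm 2L, held 6 rising genes, CR43411, Adh, Adhr, CG15282, CG34165 and CG34166, and Adh and Adhr have nearly the same counts. A run of 4 rising genes on 3R held CG14329, Edg91, CG14327 and AttD, and the 4 cecropin genes formed another. CG34165 was not called without control replicate 1, control replicate 2, row_RNAi2 replicate 2 or row_RNAi2 replicate 3 (edgeR quasi-likelihood Benjamini-Hochberg adjusted p of 0.0615 to 0.215), nor CG14327 without control replicate 1 (0.132) or row_RNAi2 replicate 3 (0.208), which breaks these 2 runs. CecA1 and CecB lost their calls in the same way. The odorant-binding protein genes Obp19a, Obp19b, Obp19c and Obp19d fell together on X, and Cpr49Ae, Cpr49Af, Cpr49Ag and CG30050 rose together on 2R. Reads shared by overlapping transcripts or paralogs are not separated here, and their part in the runs was not tested.

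Genes of chromosome 4, the small chromosome whose genes lie in heterochromatin-like surroundings, were looked at after their values were seen. Of 81 tested genes 1 rose and 13 fell (17.3% called), the median log2 fold change was -0.11, and 59 of 81 lay below 0. The medians of the other arms lay between -0.01 and 0.01, with 8.27% (X) to 11.1% (2L) called. CG31999 went from 16.2, 16.7 and 17.3 CPM to 5.36, 6.22 and 6.21 CPM (log2 fold change -1.48) and Kif3C changed by -1.74. Kif3C passed the count filter only through the controls, so its direction in the count of 13 was set by the filter. The antisense RNA CR43957, next to RpS3A, went from 17.1, 13.9 and 10.9 CPM to 3.02, 3.99 and 2.92 CPM (-2.05), and without knowledge of strand its reads cannot be told apart from those of its neighbour. The rising gene was Rfabg (apolpp), the precursor of the lipid carrier lipophorin, at 0.58. Without single libraries 9 to 14 genes of the chromosome fell, with 9 without row_RNAi2 replicate 2, and DESeq2 called 11 lower and 2 higher.

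Of the 909 called genes 11 had overlapping groups. CG34220, chosen after its values were seen, had 1.2, 1.16 and 836 CPM in controls against 1.68, 1.30 and 0.822 CPM in row_RNAi2, so that its call rests on control replicate 3 alone. Its log2 fold change of -7.85 (edgeR quasi-likelihood Benjamini-Hochberg adjusted p = 0.00702) was 0.03 without that library (adjusted p = 0.989).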
